A study of Chlamydomonas reinhardtii with 4 samples.

Results

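The phosphate genes followed here are 5 gene models of the Chlamydomonas reinhardtii array, chosen by name. Models 196473 and 182560 are both listed by the study as PSR1, and models 183357, 196465 and 196438 are listed as PTB transporters. They are 5 of 14557 models on the array, and their 15 probes are 15 of 43801 spots that are not controls. The study's own tables do not name all of them in a single way. Model 183357 appears both as PTB3, a sodium/phosphate symporter, and as PTA3, a proton/phosphate symporter, and model 196465 appears both as PTB5 and as PTB3. The RefSeq annotation of assembly Chlamydomonas_reinhardtii_v5.5 gives these loci no gene symbol, so each model is called by its number below and models that share a symbol are kept apart. The loci are CHLRE_12g495100v5 for model 196473, CHLRE_10g452100v5 for 182560, CHLRE_16g686750v5 for 183357, CHLRE_07g325740v5 for 196465 and CHLRE_02g144700v5 for 196438.

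PSR1 is a transcription regulator of the MYB type that the alga needs to respond to a lack of phosphate. When phosphate runs short it raises the transcripts of phosphate transporters and of secreted phosphatases. PTA proteins carry phosphate across membranes together with protons, and PTB proteins carry it together with sodium ions. Here the nutrient withdrawn was nitrogen and not phosphate, but no phosphate level of the cultures is given. The study relates its late-responding genes mainly to secondary effects such as phosphorus stress or limited carbon dioxide. It also reports PSR1 as raised on its arrays under nitrogen starvation, but not in the RNA-seq data used for comparison. Its main text does not say which model that was. The only control is the 0 h culture before starvation. Effects of nitrogen loss, washing, culture age and phosphate use thus cannot be told apart.

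Cells of this unicellular green alga (wild type, strain cc3491) were grown with acetate to early stationary phase, washed and moved to the same medium without nitrogen for 96 h in constant light. Each of the 4 arrays carried RNA of unstarved cells (0 h, dye Cy3) beside RNA of cells starved for 24, 48, 72 or 96 h (dye Cy5), with no dye swap. According to the series description the biological replicates had been pooled, which leaves 1 array for each time point and no error within it, and each SD given is taken over the 4 arrays. The 0 h RNA counts as 1 control sample whose own spread is in no test, and a fixed dye effect of a probe cannot be told apart from a change.

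Each model has 3 probes, here numbered as slots 1, 2 and 3 as in their names. The study left probes taken over from the first-generation array out of its analysis, for lower ratios and possible cross-hybridization. Which slots hold such probes was not determined here, and all slots were treated alike. Spot intensities are given as the median over the spot's pixels less the local background, and log2 ratios are starved over 0 h after background correction and loess. Across the arrays 17203 to 19070 probes were well above background at 0 h and 24351 to 26902 under starvation, by the scanner software's flag. A probe was kept when it passed that flag on all 4 arrays in at least 1 channel, and a model is the median of its kept probes. The filter kept 22132 probes of 10772 models. All 5 phosphate models were tested, but on unequal evidence, with 3 kept probes for models 182560 and 183357, 2 for 196473, and a single probe each for 196465 and 196438. None of the 15 probes was saturated on any array.

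The 5 models did not move as a group. Model 196473 was about 4 times as abundant in starved as in unstarved cells from the first array on, while its namesake 182560 was lower by a similar factor on the mean, and least so at 96 h. Model 183357 was lower on each of its probes, by a mean log2 ratio of -3.93 and -4.04 in a pair of probes that overlap in sequence and of -1.27 in the separate probe. The study's tables list this model with both signs, and the direction given here is that of the deposited channels, starved Cy5 over 0 h Cy3. In its comparison with RNA-seq the paper lists 183357, 196465 and 196438 all as clearly higher on its microarray, as averages over the same times. Its RNA-seq column, at a single time, has 183357 slightly lower and the others higher, each by less than on the array. The present values depart from the paper's array values in direction for 183357, which was lower. Models 196465 and 196438 had positive means but did not pass the call defined below, under a filter and processing unlike the paper's. In the deposited log ratios the means were 2.92, 2.04 and 1.22 for slots 1 to 3 of 196465. For slots 1 to 3 of 196438 they were 3.21, 4.17 and 0.49. Models 196465 and 196438 had probes that were near background early and bright at 72 and 96 h. On the mean over time, with a call at an adjusted p under 0.05 (limma, Benjamini-Hochberg over all tested models) and a change of at least 2-fold, 1 of the 5 models was called higher, where 3.47% of all tested models were, and 2 were called lower, where 6.19% were. The median of the 5 model means was 0.35, against 0.05 for all tested models. Of the 10 kept phosphate probes, 2 were called higher and 6 lower, where 4.26% and 8.23% of all kept probes were. Probes of 1 model share their target and are not separate evidence, and 1 of the 2 called higher passed the filter through the starved channel alone.

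**Figure D1:**
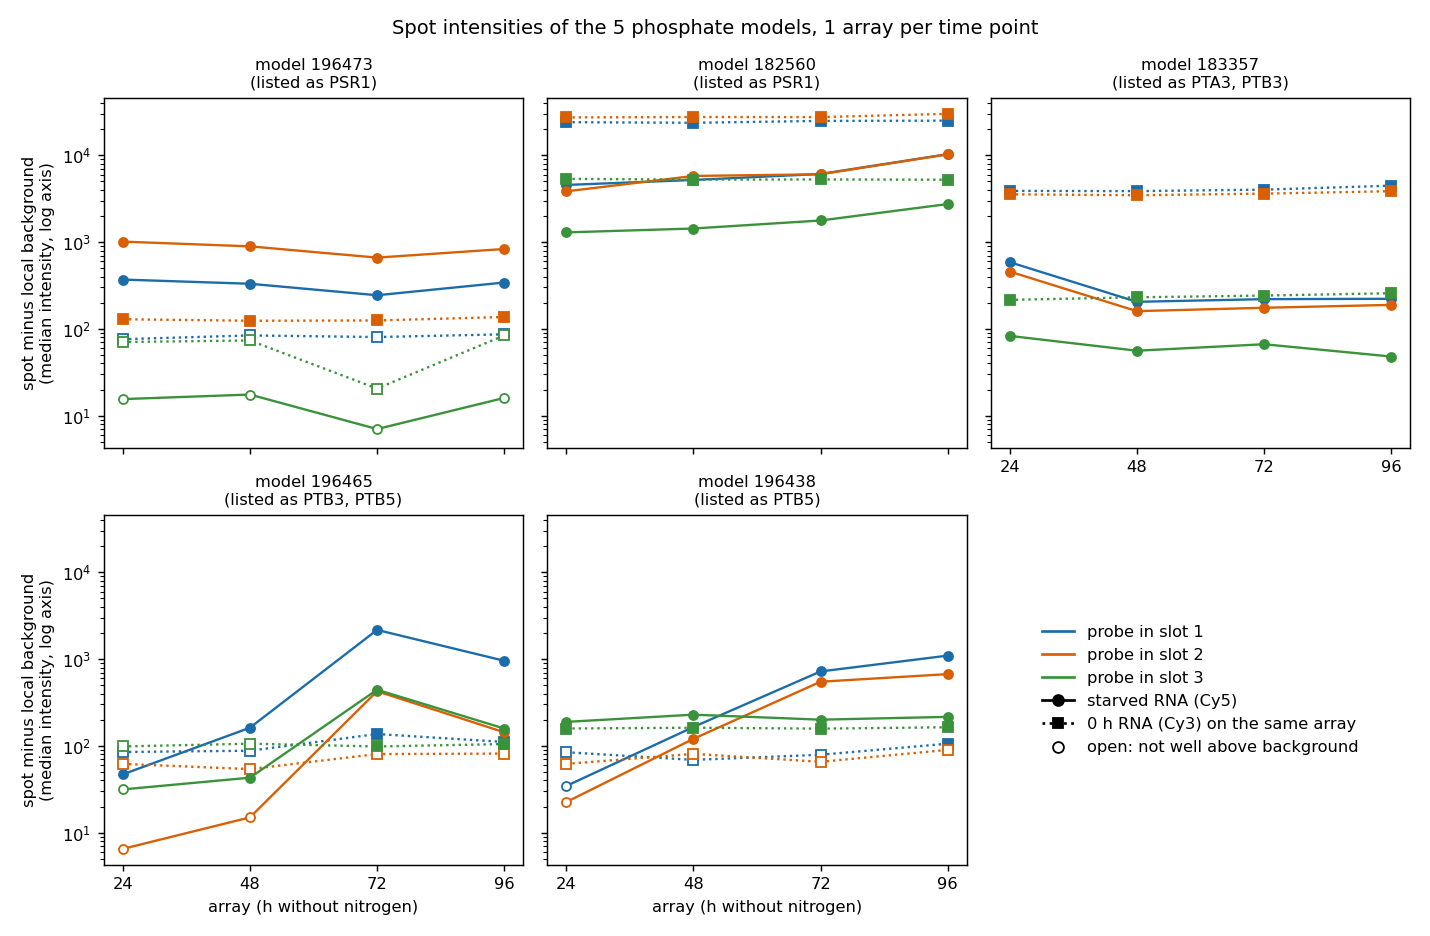
Spot intensity less local background (log axis) of the 15 probes against the time without nitrogen of each array, with 1 array per time point. Circles with full lines are starved RNA (Cy5), squares with dotted lines the 0 h RNA (Cy3) on the same array, and open symbols are spots not well above background. The 0 h spots of model 182560 lie between 5233 and 30079 and, within each probe, above the starved spots, while the slot 1 probe of model 196465 climbs from 47 to 2171 in starved RNA.

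Model 196473, the first of the PSR1 pair, was the member that was called higher. Its slot 2 probe had starved intensities of 1013, 893, 662.5 and 833 at 24, 48, 72 and 96 h, beside 0 h intensities of 129, 124, 125 and 137 on the same arrays. The starved spots were brighter than every 0 h spot of this probe, with no overlap and with the lowest starved value at 72 h. The log2 ratios were 2.47, 2.49, 1.98 and 2.31, a mean of 2.32 ± 0.24 (SD, n = 4 arrays, limma adjusted p = 0.000184).

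The slot 1 probe of model 196473 gave 370, 331, 244 and 342 in starved RNA against 76, 84, 80.5 and 86.5 at 0 h. Starved spots were again lowest at 72 h, but the 0 h spots were not well above background on any array. Its ratio is therefore a bound of at least 3.37-fold (fitted mean 1.75 ± 0.24, limma adjusted p = 0.000388). This probe passed the filter only through the channel in which it is high, so its p lends the model no support. Such a bound compares channel values after loess and Aquantile scaling and is open to dye bias, and here the dim channel's own signal set it. The third probe of the model, slot 3, was not well above background in either channel on any array, with starved intensities of 7 to 17.5 and 0 h intensities of 20.5 to 84, so the model rests on 2 of its 3 probes.

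As a model, 196473 had log2 ratios of 2.21, 2.15, 1.70 and 2.08. The mean was 2.03 ± 0.23 (SD, n = 4, 4.09-fold, limma adjusted p = 0.000227), with the dim 0 h signal of slot 1 in it. With only probes well above background in both channels, which leaves slot 2, the mean was 2.32 (limma adjusted p = 0.00018), and the deposited log ratios gave 3.60 (limma adjusted p = 6.65e-05). The direction was the same, and the size depended on how dim 0 h spots were treated. The linear trend was -0.08 ± 0.09 (SE) per 24 h (limma adjusted p = 0.759). The increase was already present at 24 h and no slope was called. The tested models with at least 2 kept probes whose 4 ratios lay nearest to it were 182821 (listed as PEPC2, a phosphoenolpyruvate carboxylase), 196080 and 206089, at Euclidean distances of 0.24, 0.285 and 0.376 log2 units over the 4 arrays, among 7364 candidates.

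Model 182560, also listed as PSR1, went the other way. Its slot 1 probe had 0 h intensities of 24108, 23721.5, 24923.5 and 25098, and starved intensities of 4556, 5203, 6095 and 10307 at 24, 48, 72 and 96 h. The unstarved value was nearly the same on the 4 arrays, and the starved value was below it on each of them, lowest at 24 h and highest at 96 h.

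The remaining probes of model 182560 repeated this. Slot 2 gave 27350, 27628.5, 27577 and 30079 at 0 h against 3845, 5784, 6046 and 10254 under starvation. Slot 3 gave 5362, 5244, 5272.5 and 5233 against 1293.5, 1434, 1774 and 2745. In each probe the lowest starved spot was that of the 24 h array and the order of the arrays was the same, and all spots of the 3 probes were well above background in both channels. The mean log2 ratios were -2.10 ± 0.58, -2.33 ± 0.63 and -1.82 ± 0.59 for slots 1 to 3 (limma adjusted p = 0.00204, 0.00188 and 0.00323).

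The model value of 182560 was -2.67, -2.29, -2.15 and -1.29 at the successive times. The mean of -2.10 ± 0.58 is a 4.29-fold lower level (limma adjusted p = 0.0024). In the starved channel after scaling, the level at 96 h exceeded that at 24 h by 1.33, 1.57 and 1.26 on the log2 scale in slots 1, 2 and 3. The ratio rose by 0.43 ± 0.08 (SE) per 24 h, a slope that was not called (unadjusted p = 0.00549, limma adjusted p = 0.216). Only 16 models, 0.149% of those tested, were called for a linear trend, none of them a phosphate model, and 1381 had an unadjusted p under 0.05. The models nearest in profile were 194541 (listed as AGT1), 194395 and 205734, at distances of 0.442, 0.504 and 0.563.

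The PSR1 models differed on each array. The log2 ratio of 196473 exceeded that of 182560 by 4.14 ± 0.66 (SD, n = 4) and was higher on 4 of 4 arrays. The exact two-sided sign-flip test over 4 arrays gave p = 0.125, which is the smallest it can give, and 0.163 after adjustment over the 17 pairs of models or probes compared here. The call under the listed symbol PSR1 thus depended on the model that was read. The models lie at different loci, and whether both are the PSR1 gene was not tested. Their 0 h levels were far apart, at a log2 mean of 14.64 in slot 1 of 182560 and 7.33 in slot 2 of 196473.

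**Figure D2:**
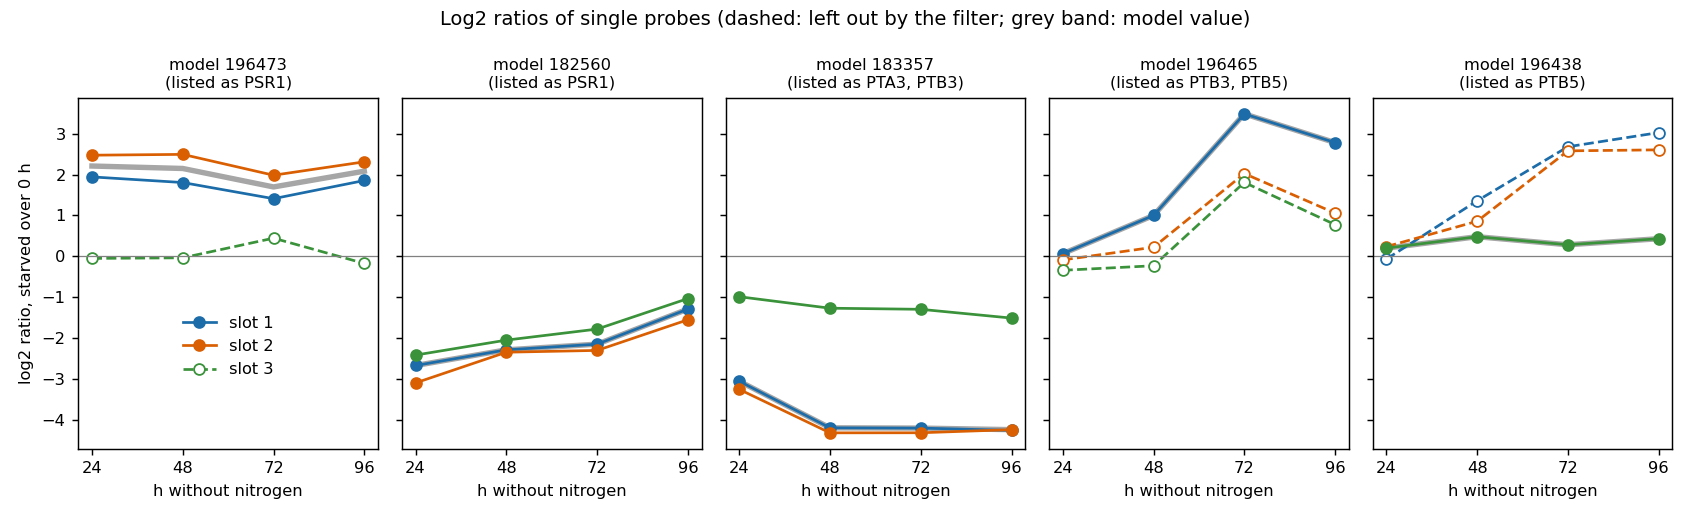
Log2 ratio (starved over 0 h) of each probe against the time without nitrogen, 1 panel per model. Filled symbols and full lines are probes kept by the filter, open symbols and dashed lines are probes it left out, and the grey band is the model value. The PSR1 models lie on opposite sides of 0, slot 3 of model 183357 stays near -1.27 while slots 1 and 2 lie near -4, and slots 1 and 2 of model 196438 leave its slot 3.

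Model 183357, listed as a sodium or as a proton symporter of phosphate, had the largest change of the 5. Its slot 1 probe had 0 h intensities of 3893.5, 3868.5, 4021.5 and 4469, against starved intensities of 587, 205, 220 and 222 at 24, 48, 72 and 96 h. Slot 2 gave 3554, 3469, 3617 and 3859.5 against 457.5, 160, 175 and 189. In both probes the starved spot was already far below the unstarved one at 24 h, fell further by 48 h and then stayed level.

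In the starved channel this second step was -1.15 and -1.12 on the log2 scale between 24 and 48 h in slots 1 and 2, and the level at 96 h was within 0.08 and 0.17 of that at 72 h. The mean log2 ratios were -3.93 ± 0.58 and -4.04 ± 0.52 (SD, n = 4, limma adjusted p = 0.000315 and 0.000224). These probes are not independent readings. In the study's probe list slot 2 is 50 bases long and lies wholly within the 60 bases of slot 1.

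Slot 3 of model 183357, a 60-base probe that shares no run of more than 5 bases with slot 1, gave a smaller decrease. Its intensities were 216, 231, 242 and 257.5 at 0 h and 83, 56, 66.5 and 48 under starvation. Unstarved spots were again the brighter ones on all 4 arrays and all spots were well above background. The log2 ratios were -0.99, -1.27, -1.30 and -1.51, with a mean of -1.27 ± 0.21 (limma adjusted p = 0.000815). The decrease in slot 1 exceeded that in slot 3 by 2.66 ± 0.40 on the log2 scale on 4 of 4 arrays (exact sign-flip p = 0.125, adjusted 0.163). What part low signal or the probe's specificity has in the gap was not tested. With median centring in place of loess, slot 3 stood at -0.97 and fell short of the 2-fold threshold. With a normexp offset of 1 it stood at -1.78, beside -4.18 for slot 1. In the deposited log ratios the values were -2.29 and -4.30, so the size of the gap depended on the processing.

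The model value of 183357 was -3.06, -4.20, -4.21 and -4.24. The mean of -3.93 ± 0.58 is a 15.2-fold lower level (limma adjusted p = 0.000336). Its slope of -0.36 ± 0.14 (SE) per 24 h was not called (limma adjusted p = 0.412). Taking slot 3 alone gave -1.27 and the mean of the 3 probes -3.08, so the call held but its size depended on the probe. The nearest profiles were those of model 158519 (FMG1-B, a glycoprotein of the flagellar membrane) at 0.442, model 184775 (LHCBM5, a light-harvesting protein) at 0.805 and model 184989 at 0.959.

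Model 196465, listed as PTB5 or PTB3, was low or near background early and bright late. Its slot 1 probe had starved intensities of 47, 162, 2171 and 957 at 24, 48, 72 and 96 h, against 85, 88, 137 and 111 at 0 h. The 24 h array showed no excess of starved over unstarved RNA, and the 72 h array the largest. The log2 ratios were 0.06, 1.00, 3.48 and 2.78. The 0 h spots of this probe were well above background only on the 72 and 96 h arrays.

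The slot 2 probe of model 196465 gave 6.5, 15, 426.5 and 143.5 under starvation against 62, 54, 80.5 and 81.5 at 0 h. Slot 3 gave 31.5, 43, 444 and 158.5 against 98.5, 106, 98.5 and 105. These probes were left out by the filter, since the starved spots passed the background flag on 2 and 3 of the 4 arrays, and they have no test. All 3 probes were brightest at 72 h and fell back at 96 h. Within the starved channel the level at 72 h exceeded that at 24 h by 4.26, 2.71 and 2.34 on the log2 scale in slots 1, 2 and 3, the latter pair against 24 h spots not well above background, and the 96 h level was lower than the 72 h level by a similar amount in each, at -1.08, -1.13 and -1.10. The 72 h value rests on 1 array, and its part in the peak cannot be told apart from that of the time point.

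As a model, 196465 was not called on the mean over time, at 1.83 ± 1.58 (SD, n = 4, 3.56-fold, limma adjusted p = 0.0668). A rise that starts after 24 h counts as spread in that test. The slope was 1.06 ± 0.29 (SE) per 24 h (unadjusted p = 0.0192, limma adjusted p = 0.297), and it was not called either. Without the 24 h array the mean was 2.42 and passed, with a limma adjusted p of 0.0312. The slot 1 probe behind these values passed the filter only through the starved channel, in which it is high. These p-values therefore lend the model no support. The 0 h level of slot 1, which should be the same RNA on every array, had an SD of 0.379 on the log2 scale against a median of 0.0799 for all kept probes, and its highest 0 h spot was on the array with the brightest starved spot. Whether this came from the bright channel was not tested. The nearest models were 193327, 190586 and 142415 (listed as SAD1), at distances of 0.89, 1.2 and 1.58.

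Model 196438, listed as PTB5, gave answers that differed between probes. Slot 1 had starved intensities of 34.5, 165, 721 and 1097 at 24, 48, 72 and 96 h, against 84.5, 69, 79 and 106 at 0 h. Slot 2 gave 22.5, 120.5, 549 and 671.5 against 62, 81, 65.5 and 90. In both, the starved spot was dimmer than the 0 h spot at 24 h and brighter from 48 h on, and the highest value came at 96 h and not at 72 h.

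The log2 ratios were -0.07, 1.36, 2.68 and 3.03 in slot 1 and 0.24, 0.86, 2.58 and 2.60 in slot 2. Both probes were left out by the filter, since the 24 h starved spot was not well above background, and neither was tested. Their 0 h spots were not well above background on any array, except slot 1 at 96 h, so the ratios rest on a denominator near background. Slot 3, the probe that was kept, stayed flat. It gave 189, 229, 200.5 and 216 under starvation against 158.5, 162, 158 and 164 at 0 h, all well above background. Starved spots were the brighter on each array by a small margin.

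The model value of 196438 is that of slot 3 alone, at 0.20, 0.48, 0.28 and 0.43. The mean of 0.35 ± 0.13 (1.27-fold, limma adjusted p = 0.0185) was below the 2-fold threshold, and the slope was 0.05 ± 0.06 per 24 h (limma adjusted p = 0.796). With no filter on dim probes the model stood at 1.56 ± 1.22 (limma adjusted p = 0.0788), so the filter decides which of its probes speaks for it. In the starved channel the level at 96 h was above that at 24 h by 3.54 and 3.00 on the log2 scale in slots 1 and 2, against 24 h spots not well above background, and by 0.21 in slot 3. Slot 1 exceeded slot 3 by 1.40 ± 1.35 in log2 ratio, on 3 of 4 arrays (exact sign-flip p = 0.25, adjusted 0.266), and slot 1 differed from slot 2 by 0.18 ± 0.37 (p = 0.375 by the same exact test). The models nearest to the flat profile were 102299, 6783 and 121110, at 0.0825, 0.0887 and 0.0967.

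The models listed as PTB5 had a difference of 1.48 ± 1.56 in log2 ratio (196465 over 196438, higher on 3 of 4 arrays, exact sign-flip p = 0.25, adjusted 0.266), which is within the spread between arrays. In order of the model means, 196473 and 196465 lay highest and overlapped within their SDs, followed by 196438, 182560 and 183357.

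Counted in the starved channel, with no ratio to 0 h and no test, 10 of the 15 phosphate probes were well above background at both 24 and 96 h, and the same number at both 24 and 72 h. The levels compared were those after loess and Aquantile scaling, in which the 0 h channel has a part. The level at 96 h was at least 2-fold above that at 24 h in 4 of the 10, where 3.52% of all such probes were, and at least 2-fold below it in 1, where 4.01% were. The 4 were the 3 probes of model 182560 and slot 1 of 196465. At 72 h against 24 h, 1 of the 10 was at least 2-fold higher, where 5.02% of all such probes were, and 2 were at least 2-fold lower, where 4.67% were. The former was slot 1 of 196465 and the latter were slots 1 and 2 of 183357. The probes of model 182560 were already above their 24 h level at 72 h, by 0.48, 0.71 and 0.58 on the log2 scale in slots 1 to 3, and passed the 2-fold mark at 96 h.

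**Figure D3:**
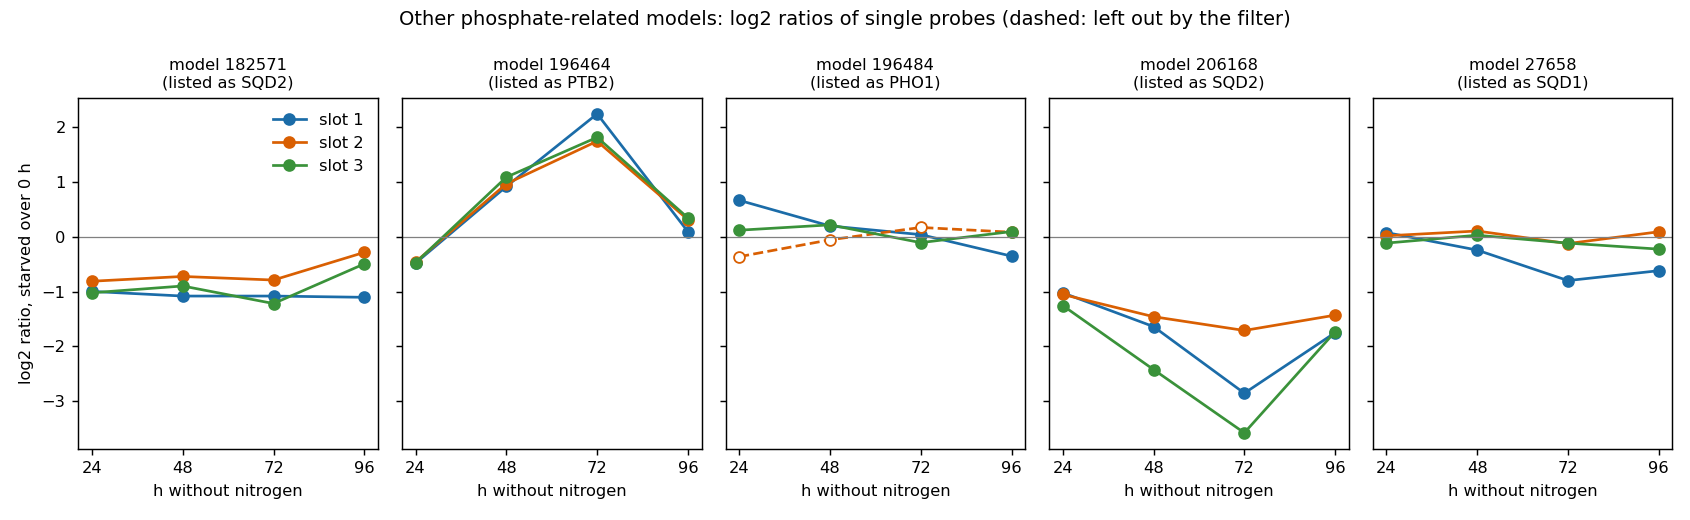
Log2 ratio (starved over 0 h) of each probe of 5 other models that the study's tables name for phosphate transport, a phosphatase or sulfolipid synthesis, against the time without nitrogen. Filled symbols are kept probes and open symbols are probes left out by the filter. The 3 probes of model 196464 (PTB2) peak together at 72 h, and those of model 206168 (SQD2) are lowest there.

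The study's tables name 5 further models for phosphate supply or for the sulfolipid that can replace phospholipids when phosphate is scarce. As that list was drawn from these and related arrays, it is no independent evidence of direction. Of the 5, all tested, 0 were called higher and 1 was called lower, where 3.47% and 6.19% of all tested models were. At any fold, 2 were lower with an adjusted p under 0.05, where 15.5% of all tested models were, and the median of their means was -0.08. Model 206168 (SQD2, an enzyme of sulfolipid synthesis) was lower at -1.05, -1.64, -2.86 and -1.73, a mean of -1.82 ± 0.75 (limma adjusted p = 0.00815). The other model under the name SQD2, 182571, had a mean of -0.87 ± 0.26, under the fold threshold (limma adjusted p = 0.00414). Model 27658 (SQD1, an earlier step of the same path) stood at -0.08 ± 0.12 and model 196484 (PHO1, listed as an alkaline phosphatase) at 0.11 ± 0.24, with limma adjusted p-values of 0.428 and 0.445.

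Model 196464, listed as PTB2, is the neighbour of model 196465 in the RefSeq assembly, at locus CHLRE_07g325741v5. Its 4 ratios were -0.47, 0.97, 1.82 and 0.31, and all 3 of its probes, well above background in both channels on every array, were highest at 72 h, at 2.25, 1.75 and 1.82. The neighbours thus had their maximum on the same array, and the PTB2 model was back near its 0 h level at 96 h. The mean was 0.66 ± 0.97 and was not called (limma adjusted p = 0.222). A highest ratio at 72 h was found in 23.3% of all tested models and a lowest one, as in model 206168, in 27.9%.

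Of the 20 loci that lie up to 2 places to either side of the 5 phosphate loci, 13 were on the array and 7 were tested. Of these, 1 was called higher and 1 lower, where 3.47% and 6.19% of all tested models were, and the neighbours were chosen after their values had been seen. The former was model 196439 (CHLRE_02g144750v5), 2 places from model 196438, with log2 ratios of 1.40, 1.32, 1.20 and 0.34 and a mean of 1.07 ± 0.49 (limma adjusted p = 0.0122), highest where model 196438 had its dimmest starved spots. The loci on the other side of 196438 hold models 196335 and 196237, which were not tested because no probe passed the filter. The slot 1 probe of 196335 read -0.16, 0.50, 1.47 and 1.37 and that of 196237 read 0.08, -0.16, 1.18 and 0.97, so these neighbours, like slots 1 and 2 of 196438, were higher on the late arrays than on the 24 h array. The files and the reference give these loci no name, and whether any probe reads more than 1 of them was not tested. The model called lower was 168073, 2 places from 182560, at -1.41 ± 0.20 (limma adjusted p = 0.000518).

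Scaling changed the balance of higher and lower calls. It was not always a common shift, as the deposited log ratios gave more calls in both directions (1032 higher and 959 lower, against 374 and 667 here). The share of called models that were higher was 35.9% here, 65% with median centring, 51.8% with the deposited log ratios and 1.42% with those ratios less the spike-in intercepts, which brought the median of all models to -1.41. Median centring placed that median at 0.22 and the deposited ratios at 0.15, against 0.05 here. Relative to these medians each of the 5 models kept its side under all of them.

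**Figure D4:**
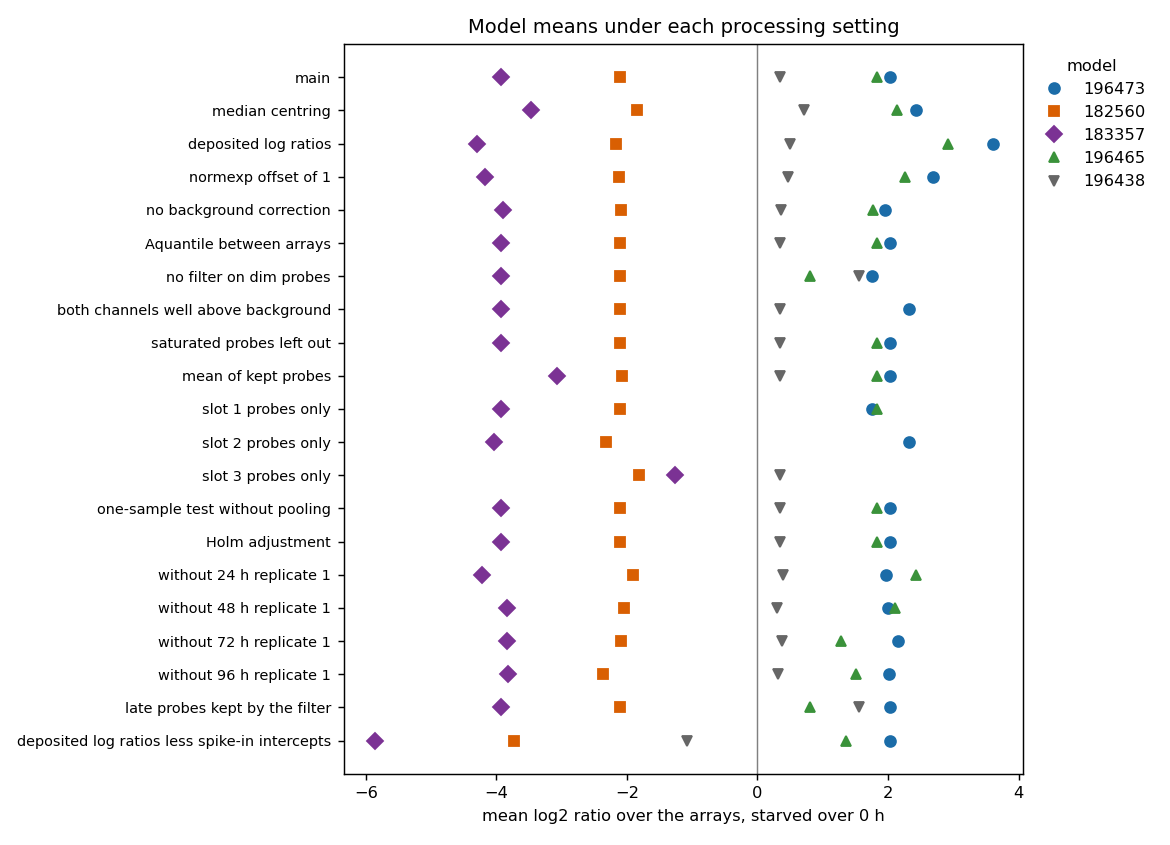
Mean log2 ratio (starved over 0 h) of the 5 models under each processing setting, 1 symbol per model, with the main setting on top. Models 182560 and 183357 stay below 0 and models 196473 and 196465 above it wherever they have a kept probe. Model 196438 moves from 0.35 to 1.56 where the filter on dim probes is eased and to -1.07 where spike-in intercepts are subtracted.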

How the data were processed

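The deposited files were written by the scanner software (Agilent Feature Extraction 10.7.3.1). They give, per the file headers, median spot and background intensity values of both channels, background flags, and a log10 ratio for which the authors' software had subtracted background and applied a linear and lowess dye normalization. The authors' series table holds the same log10 values. Median intensities were corrected with normexp (offset 50) and normalized within arrays by loess (span 0.3, 4 iterations) in R 4.3.3 with limma 3.58.1. Outlier spots, 13 in all, were left out. Means over 4 arrays were tested against 0 (two-sided, lmFit and eBayes) on 3 residual degrees of freedom, and slopes per 24 h on 2. Levels in single channels were compared after loess and Aquantile scaling, which use both channels. The script was tested on simulated data. Loci were matched through old locus tags (12302 of 14557 models). Array probes were designed on JGI 3.1 models, so no coordinates are given, and probe specificity was not analysed here. Named were the 5 models, the other phosphate models of the study's tables and, for each of the 5, the 3 nearest profiles; locus neighbours were added after their values were seen. The members and lists were chosen with earlier results of these data known.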

Additional observations from a re-analysis of the deposited data

Results flagged for a closer look

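The 0 h level of the slot 1 probe of model 183357 had 1 array apart from the others, with the gap taking 0.923 of the range over the 4 arrays. The 96 h array read 4469 where the others read 3868.5 to 4021.5, a range of 0.145 on the log2 scale beside a mean log2 ratio of -3.93. About 1 in 20 groups would be singled out in this way by chance.

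Probes left out by the filter on dim spots, and so outside the tests, carried signal above the 0 h channel on late arrays. Their highest log2 ratios were 2.02 for slot 2 and 1.81 for slot 3 of model 196465, both at 72 h, and 3.03 for slot 1 and 2.60 for slot 2 of model 196438, both at 96 h.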

How the results depend on the processing

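Model 196473 was called higher under all 19 alternatives that gave it a value, with means from 1.75 (slot 1 alone) to 3.60 (deposited log ratios) against 2.03. Slot 1 passed the filter only through the starved channel and enters most of these, so their number is no measure of support. Slot 2 alone, well above background in both channels, gave 2.32. Models 182560 and 183357 kept their call except under the Holm adjustment (means -2.10 and -3.93, adjusted p = 1 and 0.0828). Model 196465 passed with median centring (2.13), the deposited log ratios (2.92), a normexp offset of 1 (2.27) and spike-in intercepts subtracted (1.36, chosen after seeing the data). Its only kept probe in these settings passed the filter through the starved channel alone, so passing lends the model no support. Leaving out 1 array gave it 1.28 to 2.42. Model 196438 changed sign, to -1.07, only with spike-in intercepts subtracted, where the median of all models also moved to -1.41. Keeping late probes, likewise chosen after seeing the data, gave 0.80 for 196465 and 1.56 for 196438. In all, 1041 models were called on the mean, against 1991 with the deposited ratios, 657 with slot 3 alone, 198 with Holm and 8318 with spike-in intercepts. The 16 trend calls became 8 with median centring, and 0 to 192 without 1 array (192 without the 72 h array and 0 without any other). The causes were not tested. A fit on mean spot intensities was not run, since the columns read hold medians. No paired analysis was possible because each group is 1 array. Signal near background at 0 h limits models 196465 and 196438.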
